A study of Mus musculus with 26 samples.

Results

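The Grn heterozygous state was examined in microglia, the resident macrophages of the brain, on a background in which every mouse was also heterozygous for Tmem106b. The comparison sets 3 libraries labelled TMEM HET GRN HET against 4 labelled TMEM HET GRN WT, chosen by the genotype label alone, and so uses 7 of the 26 libraries of the series. The Tmem106b HET state is shared by both groups, so neither is wild type, and the comparison asks what a heterozygous Grn genotype does on a heterozygous Tmem106b background. The remaining libraries carry Tmem106b WT, HET or KO with Grn WT, HET or KO in 5 further combinations, and all of them enter the model, where they share its estimates of spread, sex and dissection. A complete loss of Grn is quoted beside the heterozygotes from 3 libraries labelled TMEM HET GRN KO, which share the same Grn WT controls. Tmem106b WT mice (3 Grn WT, 5 Grn HET and 4 Grn KO libraries) gave the genes that respond to that loss and the other arm of an interaction test.

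Progranulin, the protein made from Grn, is a secreted glycoprotein that cells also deliver to lysosomes, where it is cut into smaller granulins that bear on the work of lysosomal enzymes. Sortilin (Sort1) carries it there directly and prosaposin (Psap) carries it through other receptors. Loss of 1 GRN copy is a known cause of frontotemporal dementia in humans, and TMEM106B, which sits in the membrane of lysosomes and late endosomes, is a known modifier of that disease. Microglia are among the cells of the brain that make the most progranulin.

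The sources used here do not give the construction of the alleles, the age of the mice or the way the cells were isolated. Nothing in the labels says that each library came from its own animal, so the p-values below measure the spread between libraries, part of which may be technical. The 3 Grn HET libraries are a male (replicate 1), a female (replicate 2) and a male (replicate 3), all with the dissection label Entire. The 4 Grn WT libraries are 2 females labelled Entire (replicates 1 and 2) and 2 males labelled Hemi (replicates 3 and 4), so within the Grn WT group sex and dissection cannot be told apart. The labels do not explain the words Entire and Hemi. Library totals were 49.1 to 58.3 M counts in the 7 libraries, which held 18717 to 22601 genes with a count. The 10 markers of microglial identity summed to 36581 to 55792 CPM (counts scaled to a common library total) in the 7 libraries, among them Csf1r and Tmem119, and none was at 0. The smallest of these sums was in Grn WT replicate 3, a Hemi library in which oligodendrocyte and endothelial transcripts were also at their highest.

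Grn itself was lower in the heterozygotes. It lies on chromosome 11 (GRCm38, 102430315 to 102437048, plus strand) and is protein coding. Its level was 2033, 1554 and 1918 CPM in Grn HET replicates 1 to 3 and 2915, 4048, 2075 and 2881 CPM in Grn WT replicates 1 to 4. Every Grn HET library lay below every Grn WT library, although Grn WT replicate 3 lay close to Grn HET replicate 1. The Grn HET mean was 1835 ± 250 CPM (SD, n = 3), which is 61.6% of the Grn WT mean of 2980 ± 811 CPM (SD, n = 4). The difference in mean log2 CPM was -0.67, with a two-sided exact permutation p of 0.0571, the smallest that 35 splits of 3 against 4 libraries allow, and 0.114 after adjustment over the Grn and Tmem106b tests. Among the 5 Entire libraries alone it was -0.91, where the smallest exact p is 0.2. Grn KO replicates 1 to 3 held 0.0206, 1.64 and 8.04 CPM of Grn. In bulk libraries such as these, fewer cells that express a gene and less RNA per cell cannot be told apart.

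The model over all 26 libraries gave a weaker value for the same gene. There the log2 fold change of Grn was -0.24 (SE 1.29, 95% interval -2.93 to 2.45), an interval far wider than the spread of these 7 libraries. The fit estimates 1 spread for each gene over all groups, and in the Grn KO libraries the few remaining counts vary many-fold. When the Grn KO libraries were left out, the edgeR estimate was -1.19 (SE 0.40, adjusted p = 0.859), and with the 7 libraries alone and no covariates it was -0.75 (SE 0.24, adjusted p = 0.799). With the Grn KO libraries kept, the estimate became positive without Grn HET replicate 2 (0.12) or without Grn WT replicate 2 (0.05).

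Tmem106b was measured as a check of the shared background. It lies on chromosome 6 (13069759 to 13089269, plus strand). Its level was 59.3, 69.1 and 59.4 CPM in the Grn HET libraries and 71.8, 46.3, 83.4 and 39.1 CPM in the Grn WT libraries. The Grn HET values all fell inside the range of the Grn WT values. The difference in mean log2 CPM was 0.12 (two-sided exact permutation p = 0.686), and it was -0.06 without Grn WT replicate 4, -0.0085 on the plain library total and -0.02 on the deposited RPKM. The edgeR log2 fold change was -0.02 (95% interval -0.50 to 0.46). Its paralogs, Tmem106a and Tmem106c, had log2 fold changes of -0.19 (SE 0.31) and 0.04 (SE 0.21).

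**Figure D1:**
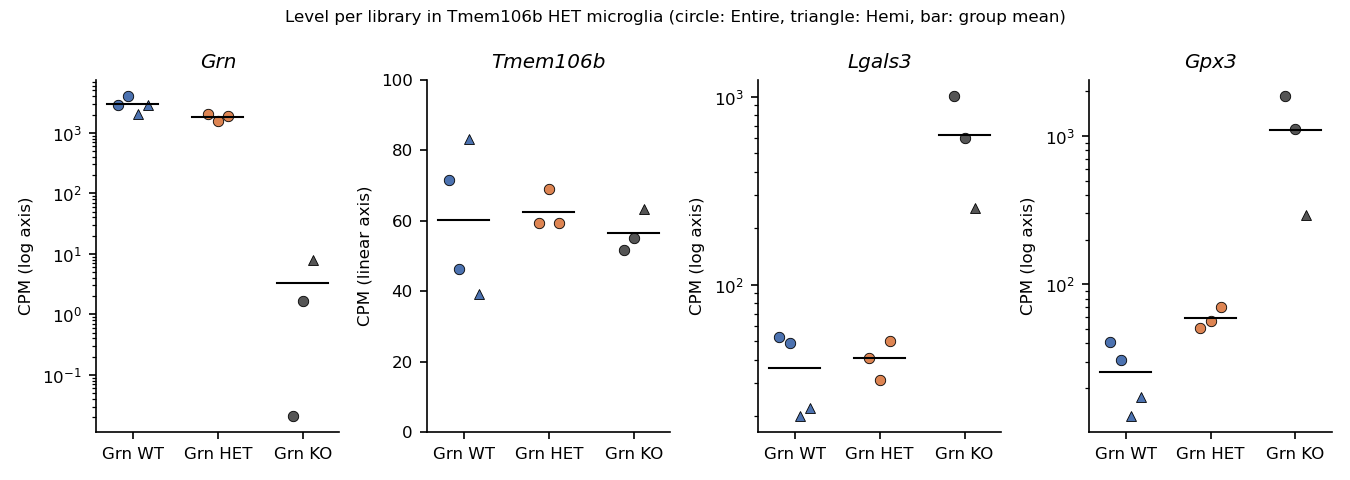
Level of 4 genes in each library of the Tmem106b HET mice, in CPM, by Grn genotype (circles Entire, triangles Hemi, bars group means; Tmem106b on a linear axis, the others on log axes). Grn HET libraries sit just below Grn WT libraries for Grn (1835 against 2980 CPM on average) and far above the Grn KO libraries, while Lgals3 is high only in the Grn KO libraries plotted, at 257 to 1008 CPM.

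Across the transcriptome no gene passed. Of 21371 genes tested with the edgeR quasi-likelihood test, 0 (0.0%) had an adjusted p under 0.05, and the smallest adjusted p was 0.854. An unadjusted p under 0.05 was reached by 1183 genes (5.54%), of which 543 (2.54%) were higher and 640 (2.99%) lower in the Grn HET libraries. Limma-voom with the same groups and covariates also gave 0 genes. DESeq2 gave 278 (1.3%), 98 (0.459%) higher and 180 (0.842%) lower. In 211 of those 278 all libraries of 1 group were at 0, the median level in the higher group was 0.160 CPM, and 27 reached 5 CPM in the higher group. Without Grn HET replicate 1, 4 genes passed in edgeR, all lower, namely Pemt, Wdpcp, Rrp12 and Msl3l2 (each with an adjusted p of 0.0438). With the 18 Entire libraries alone no gene passed in edgeR.

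The precision sets what could be seen. The median standard error of a log2 fold change was 0.273 over the 3932 genes at 50 CPM or more, 0.404 over the 6864 genes at 5 to 50 CPM and 1.55 over the 10575 genes below that. For comparison, the same model called 3093 genes (14.5%, with 8.42% higher and 6.05% lower) in Grn KO against Grn WT of Tmem106b HET mice. In Grn KO against Grn HET of those mice it called 1398 genes (6.54%, with 3.77% higher and 2.77% lower). Those comparisons share the Grn WT or the Grn HET libraries with this one, so their values are set side by side only. In 1513 genes (7.08%) the Grn HET and Grn WT libraries did not overlap, 898 (4.2%) higher and 615 (2.88%) lower. Of the 11292 genes at 5 CPM or more in the higher group, 713 were higher without overlap and 306 lower.

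Since none passed, the genes named next are the 12 in each direction with the smallest p at a log2 difference of at least 0.5 and at least 5 CPM, and they are a description of these 7 libraries. Their direction was the same in each of the 20 alternative settings, and 17 of the 24 passed with DESeq2. Among the 12 fitted higher, 7 had no overlap between the groups, and among the 12 fitted lower, 10. Over all genes these shares were 4.2% and 2.88%. The 24 were chosen by p in these same libraries, so none of these counts is separate support for them.

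The gene with the smallest p among those fitted higher was Eif2b1, a subunit of the exchange factor that recharges initiation factor eIF2 in translation. It was at 33.7, 42.3 and 41.2 CPM in the Grn HET libraries and at 20.3, 27.3, 30.9 and 25.4 CPM in the Grn WT libraries. All Grn HET libraries lay above all Grn WT libraries, the nearest pair being Grn HET replicate 1 and Grn WT replicate 3. The log2 fold change was 0.79 (SE 0.18, adjusted p = 0.854). Thoc1, of the THO complex that couples transcription to mRNA export, was at 67.7, 98.2 and 69.0 CPM against 58.6, 54.8, 44.7 and 54.2 CPM. Its groups did not overlap either, with Grn HET replicate 2 the highest (log2 fold change 0.57, SE 0.15).

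Coq8b, a kinase-like protein needed for coenzyme Q synthesis, was at 30.8, 63.0 and 43.4 CPM in the Grn HET libraries and 23.8, 31.1, 27.6 and 18.1 CPM in the Grn WT libraries (log2 fold change 0.91, SE 0.22). The groups touched, since Grn HET replicate 1 was just below Grn WT replicate 2. Selenoo, a mitochondrial selenoprotein, was at 41.4, 61.7 and 57.7 CPM against 39.0, 39.5, 31.1 and 35.7 CPM, without overlap (log2 fold change 0.53, SE 0.15). Mrpl54, a protein of the large mitochondrial ribosomal subunit, had a log2 fold change of 0.84 (SE 0.24) and overlapping groups.

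Rn7sk and Tmem158 had the largest fitted differences of the 12, 1.71 (SE 0.48) and 1.75 (SE 0.49). Rn7sk, the small nuclear RNA that holds the elongation factor P-TEFb inactive, was at 52.8, 153 and 107 CPM in the Grn HET libraries and at 60.3, 36.1, 15.5 and 13.05 CPM in the Grn WT libraries. The 2 Hemi libraries were the lowest, and the Entire libraries of the groups overlapped. The libraries were made from poly(A) RNA, so the counts of this small nuclear RNA may not follow its level in the cells, which was not tested. Tmem158 was at 5.88, 29.1 and 9.57 CPM against 7.96, 4.25, 11.7 and 5.61 CPM, so that Grn HET replicate 2 alone stood above the Grn WT range. The remaining 5 were Hyi (0.98), Hddc2 (1.16), Fbxl15 (1.12), Arl6ip4 (0.76) and Ssna1 (0.61), all log2 fold changes, of which only Arl6ip4 had overlapping groups.

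Of the 12 fitted lower, Zswim5, a zinc finger protein of the SWIM family, had the smallest p. It was at 2.63, 0.248 and 0.917 CPM in the Grn HET libraries and at 9.35, 8.20, 14.7 and 9.99 CPM in the Grn WT libraries. The groups were well apart, and the 4 Grn WT libraries were close to each other whether Entire or Hemi. The log2 fold change was -3.30 (SE 0.78, 95% interval -4.92 to -1.67, adjusted p = 0.854). In the Grn KO libraries it was at 1.98, 5.45 and 11.2 CPM, a range that overlaps both groups.

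Abca3, a transporter that loads phospholipid into lysosome-related organelles, was at 49.8, 17.9 and 17.8 CPM against 81.3, 82.0, 67.7 and 100.6 CPM. The groups did not overlap, and Grn HET replicate 1 lay nearest to the Grn WT libraries (log2 fold change -1.55, SE 0.41). Bcl6, a transcriptional repressor that restrains inflammatory genes in macrophages, was at 13.7, 6.25 and 11.4 CPM against 20.02, 22.6, 29.9 and 17.6 CPM. Again no library crossed to the other group's range (log2 fold change -1.28, SE 0.35). Ccdc167 at -1.24, Nhsl2 at -1.22 and Lzic at -1.05 likewise had log2 fold changes below 0 and no overlap, while Zmym3 (-0.99) and Ecd (-0.66) overlapped.

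Phf24, Nell1, Lrp3 and Lrrn2 were also fitted lower, and their Grn WT values were lower in the Entire females than in the Hemi males. In Nell1 only Grn WT replicate 4 stood apart, at 20.3 CPM. The other Grn WT libraries, Entire and Hemi, were at 1.41 to 3.97 CPM of Nell1. Lrrn2, a leucine-rich repeat protein of neurons, was at 3.61, 1.16 and 1.06 CPM in the Grn HET libraries and at 6.04, 7.63, 38.2 and 59.4 CPM in the Grn WT libraries. Lrp3, of the LDL receptor family, was at 1.04, 0.686 and 0.693 CPM against 4.61, 5.61, 33.1 and 18.4 CPM. In all 4 genes the Entire Grn WT libraries were lower than the Hemi ones, and still above every Grn HET library. All 4 rose in Grn KO against Grn WT, by 2.10 to 2.66 on the log2 scale. The 12 neuron markers followed the Hemi label too, at 55.6, 219 and 129 CPM in the Grn HET libraries against 74.2, 80.3, 721 and 1463 CPM in the Grn WT libraries, with none at 0 in all 7. Their part in these 4 genes was not tested.

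**Figure D2:**
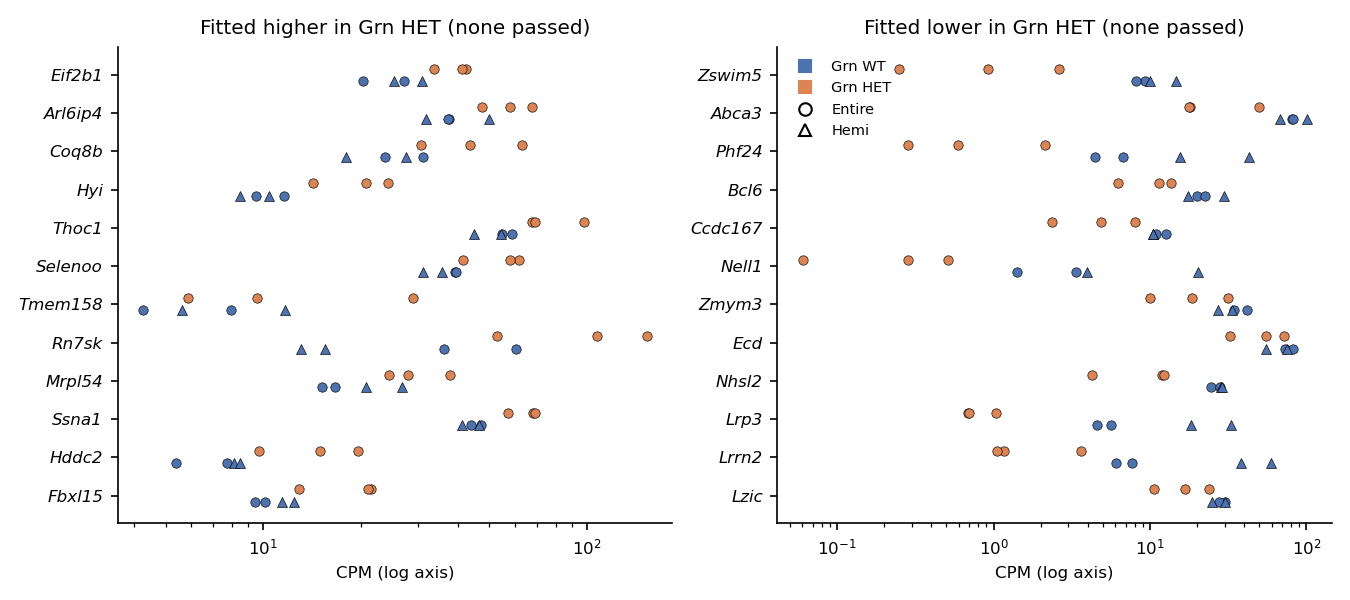
Level in CPM (log axis) of the 12 genes fitted higher and the 12 fitted lower in Grn HET, for each library (blue Grn WT, orange Grn HET, circles Entire, triangles Hemi). None passed the test. In Zswim5 and Abca3 the groups stand apart, while in Lrp3 and Lrrn2 the Grn WT values divide into Entire and Hemi libraries.

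Genes that answer to a complete loss of Grn give another view of the heterozygotes. They were taken from other libraries, those of Tmem106b WT mice. There 91 genes (0.426%) rose and 32 genes (0.15%) fell in Grn KO against Grn WT, the 32 including Grn. Those libraries also enter the model and share its sex and dissection estimates. The list is therefore not independent of the fitted Grn HET values. In Tmem106b HET mice, 83 of the 91 also rose in Grn KO against Grn WT (8.42% of all genes did), with a median log2 fold change of 1.99, and 75 rose in Grn KO against Grn HET (3.77% of all genes did), with a median of 1.92. In Grn HET against Grn WT, none of the 91 passed. Their median was 0.10 (quartiles -0.35 and 0.36) beside -0.07 over all genes, and 53 of 91 were above 0 (45.1% of all genes were). Of the 91, 6 higher and 9 lower genes had an unadjusted p under 0.05, beside 2.54% and 2.99% of all genes. The median was below 0 in the 7 libraries alone, at -0.05 without and -0.31 with covariates, and also without Grn HET replicate 1 (-0.04) or replicate 3 (-0.07). Without Grn HET replicate 2 it was 0.28. The 91 are not all microglial genes, since they include Chrna3, a marker of the medial habenula. In Grn KO against Grn WT of Tmem106b HET mice, 9 of 12 neuron and 11 of 12 medial habenula markers rose, beside 8.42% of all genes. The neuron markers summed to 557, 2316 and 7299 CPM in those Grn KO libraries. The part of neuronal transcripts in the 91 was not tested.

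Lgals3, which encodes galectin-3, a lectin recruited to damaged lysosomes, had the smallest p of the 91 in the libraries used to choose them. It was at 40.6, 31.1 and 50.4 CPM in the Grn HET libraries and at 52.9, 48.8, 19.95 and 22.1 CPM in the Grn WT libraries, beside 1008, 600 and 257 CPM in the Grn KO libraries. Grn HET libraries lay within the Grn WT range, whose low values were the Hemi libraries. The log2 fold change was 0.11 (SE 0.41, 95% interval -0.73 to 0.96) in Grn HET and 3.96 in Grn KO against the same Grn WT libraries.

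Gpnmb, a membrane glycoprotein induced by lysosomal stress, was at 14.1, 1.71 and 16.2 CPM in the Grn HET libraries, at 28.1, 12.6, 1.43 and 2.86 CPM in the Grn WT libraries, while Grn KO replicates held 13189, 9117 and 2387 CPM. Its heterozygous and wild-type values were interleaved. Apoe, the lipid carrier of disease-associated microglia, was at 8062, 5835 and 9980 CPM in the Grn HET libraries against 7349, 5305, 4507 and 3279 CPM, and reached 81110 CPM in a Grn KO library. Its highest Grn HET value exceeded the Grn WT range, and the log2 fold change was 0.47 (SE 0.45). Pld3, a lysosomal nuclease, was at 609, 534 and 609 CPM against 539, 642, 353 and 475 CPM (log2 fold change 0.13, SE 0.25).

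Gpx3, the extracellular glutathione peroxidase, was the only 1 of the 10 named genes that rose in Grn KO for which the Grn HET and Grn WT libraries did not overlap. It was at 50.7, 56.9 and 70.3 CPM in the Grn HET libraries and at 40.9, 30.7, 12.9 and 17.5 CPM in the Grn WT libraries, and its Grn HET mean was 59.3 ± 10.02 CPM (SD, n = 3) against 25.5 ± 12.8 CPM (SD, n = 4). The lowest Grn WT values were again the Hemi libraries. Its log2 fold change was 1.37 (SE 0.57, 95% interval 0.19 to 2.55, adjusted p = 0.854), and over the 20 settings it ran from 0.62 in the 7 libraries with covariates to 1.63 without Grn WT replicate 1. In Grn KO its log2 fold change against Grn WT was 5.31.

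Other named genes of the 91 had log2 fold changes in Grn HET of -0.01 for Nceh1, which hydrolyses cholesterol esters, 0.30 for Lilr4b, -0.29 for Cd300lf, both inhibitory immune receptors, and 0.56 for Chst2, a sulfotransferase. Mcoln3, a lysosomal cation channel, held at most 0.898 CPM in any of the 7 libraries, beside 15.3 to 184 CPM in the Grn KO libraries. All 10 named genes that rose in Grn KO passed in Grn KO against Grn HET. Optn, an autophagy receptor, was among the 6 of 91 with an unadjusted p under 0.05 that were higher, at 14.8, 27.7 and 33.2 CPM in the Grn HET libraries against 16.5, 10.2, 22.8 and 16.7 CPM (log2 fold change 1.01, SE 0.37). Of its Grn HET libraries only replicate 1 lay within the Grn WT range.

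The 31 genes other than Grn that fell in Grn KO of Tmem106b WT mice were followed likewise. Of these, 29 also fell in Grn KO against Grn WT of Tmem106b HET mice (6.05% of all genes did), with a median log2 fold change of -1.68, and 24 fell in Grn KO against Grn HET (2.77% of all genes did). None passed in Grn HET against Grn WT, where the median was -0.20, beside -0.07 over all genes. Of the 31, 22 were below 0 and 9 above (45.1% of all genes were above). That median was above 0 without covariates (0.13), with sex alone (0.16) and in the 7 libraries without covariates (0.08). In 5 of the 31 every Grn HET library was above every Grn WT library (4.2% of all genes), and in 2 below (2.88%). Upk1b, a tetraspanin-family membrane protein of microglia, differed between its library values and its fitted value. It was at 155, 159 and 165 CPM in the Grn HET libraries and at 139, 139, 113 and 124 CPM in the Grn WT libraries, so that every Grn HET library was higher, yet the fitted log2 fold change after adjustment for sex and dissection was 0.07 (SE 0.37). Its Grn KO libraries were at 16.1 to 16.8 CPM.

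Arhgef10l, a guanine nucleotide exchange factor, was the only 1 of the 10 named genes that fell in Grn KO for which every Grn HET library also lay below every Grn WT library. It was at 47.8, 36.1 and 42.7 CPM against 48.0, 64.2, 60.0 and 60.0 CPM, a gap of under 1 CPM at its narrowest (log2 fold change -0.52, SE 0.21, adjusted p = 0.854). It was also the only 1 of those 10 that did not pass in Grn KO against Grn HET. Eng, a co-receptor for TGF-beta, was at 77.9, 70.5 and 65.6 CPM against 81.8, 100, 74.7 and 64.4 CPM (log2 fold change -0.70, SE 0.40), with overlapping groups. Siglece, an inhibitory receptor for sialic acid, had a log2 fold change of -0.44 (SE 0.31), Zfp710 of -0.20, Tm6sf1 of -0.06, Crybb1 of 0.04, St3gal5, which makes the ganglioside GM3, of 0.07, and Col27a1 of 0.36.

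**Figure D3:**
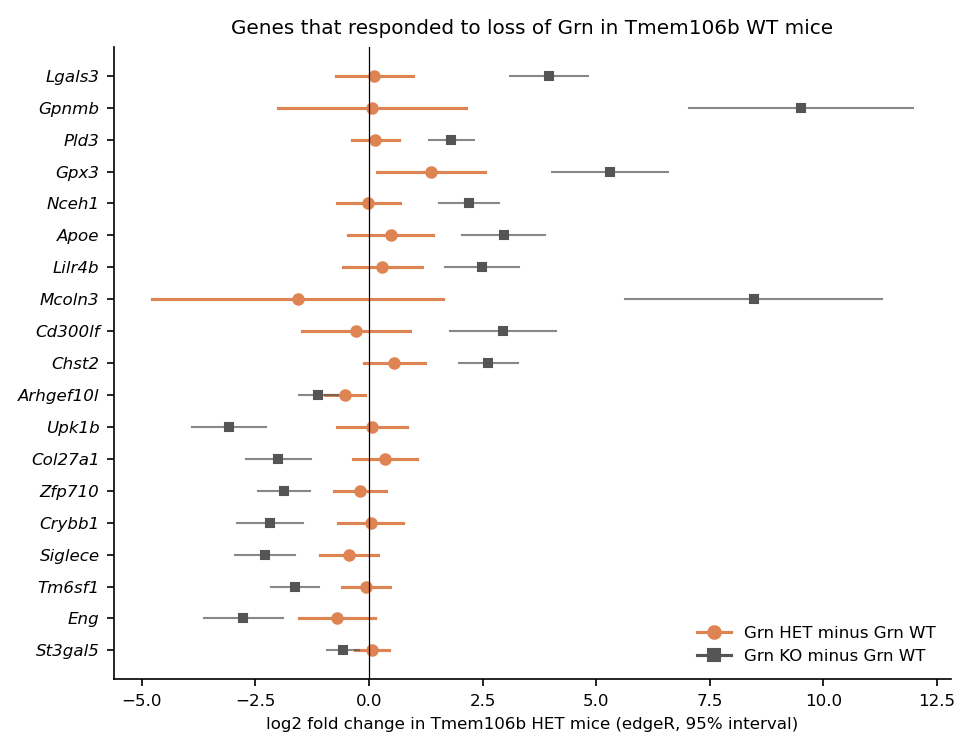
Log2 fold change in Tmem106b HET mice, with 95% intervals, for 19 named genes that responded to loss of Grn in Tmem106b WT mice (orange Grn HET minus Grn WT, grey Grn KO minus Grn WT; the unnamed predicted gene is left out). The Grn HET intervals include 0 except for Gpx3 (0.19 to 2.55) and Arhgef10l (-0.96 to -0.08), while the Grn KO values of Lgals3 and Gpx3 are 3.96 and 5.31.

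Among progranulin and the genes that handle it, none of 18 tested members passed, 5 were above 0, and the median log2 fold change was -0.18. Over all genes, 45.1% were above 0 and the median was -0.07. The median was above 0 without covariates (0.13), with sex alone (0.16), in the 7 libraries without covariates (0.05) and in the Entire libraries alone (0.02). Sort1, the receptor that takes progranulin into the cell, was at 237, 247 and 231 CPM in the Grn HET libraries and at 332, 324, 317 and 303 CPM in the Grn WT libraries. All Grn HET libraries lay below all Grn WT libraries, with little spread inside either group and with the Hemi libraries next to the Entire ones. The log2 fold change was -0.56 (SE 0.36, 95% interval -1.32 to 0.20). Sort1 was lower again in Grn KO, at 121, 153 and 62.5 CPM. Igf2r, the mannose 6-phosphate receptor that also moves lysosomal proteins, was the only 1 of the 18 with an unadjusted p under 0.05 (log2 fold change -3.01, SE 1.02). Over all genes, 2.99% were lower at that p. Igf2r was at 0.762, 0.0191 and 0.632 CPM against 2.44, 2.27, 6.55 and 6.42 CPM, low levels in every library. The retromer subunits Vps35 (-0.23, SE 0.18) and Vps29 (0.36, SE 0.19) overlapped between groups.

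Lysosomal enzymes showed no common direction. Of 42 hydrolases none passed, 15 were above 0 and the median was -0.05. Neu1, the lysosomal sialidase, was at 137, 155 and 138 CPM in the Grn HET libraries against 117, 126, 88.4 and 104 CPM, without overlap (log2 fold change 0.33, SE 0.15). It was the only 1 of the 42 with an unadjusted p under 0.05, beside 2.54% of all genes higher at that p. Arsa, arylsulfatase A, had a log2 fold change of 0.42 (SE 0.21), Arsb, arylsulfatase B, of -0.43 (SE 0.28) and Lipa, the acid lipase, of -0.43 (SE 0.29). Of 28 lysosomal membrane proteins and channels none passed, 13 were above 0 and the median was -0.04. Mcoln1, the main calcium channel of lysosomes, was at 129, 191 and 149 CPM against 126, 132, 103 and 127 CPM, with Grn HET replicate 1 inside the Grn WT range (log2 fold change 0.32, SE 0.14). Without covariates the medians of both lists were above 0, at 0.27 and 0.30.

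The vacuolar ATPase, the pump that acidifies lysosomes, had 15 of 19 subunits above 0, a median of 0.10 and none that passed. The largest fitted values were those of Atp6v1e1 (0.49, SE 0.25), Atp6v0c (0.45, SE 0.27) and Atp6v1d (0.44, SE 0.27). Atp6v1e1 was at 180, 196 and 185 CPM in the Grn HET libraries and at 136, 139, 197 and 205 CPM in the Grn WT libraries, above the Entire and below the Hemi ones. In Grn KO against Grn WT, 14 of the 19 subunits rose, beside 8.42% of all genes. The subunits summed to 4746, 5640 and 8523 CPM in Grn KO replicates 1 to 3. Neuron markers summed to 557, 2316 and 7299 CPM in the same libraries, and their part in this rise was not tested. Of 29 genes of the TFEB family and autophagy, 17 were above 0, with a median of 0.04 and none that passed, and Atg7 (-0.54, SE 0.26) and Ulk1 (-0.49, SE 0.34), which act early in autophagosome formation, lay below 0 while Map1lc3a (0.46, SE 0.30) lay above.

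Genes of the disease-associated microglial state did not pass either. Of 34 tested, 23 were above 0 and the median was 0.12. In 9 of them every Grn HET library was above every Grn WT library. This held for 4.2% of all genes, and for 713 of the 11292 genes at 5 CPM or more in the higher group. Microglial identity markers summed to 49599 to 55751 CPM in Grn HET and 36581 to 55792 CPM in Grn WT, lowest in Grn WT replicate 3. The part of microglial content in this count was not tested. Ccl3, a chemokine, was at 503, 498 and 292 CPM in the Grn HET libraries and at 218, 171, 126 and 167 CPM in the Grn WT libraries. Every Grn HET library was above the Entire and the Hemi Grn WT libraries (log2 fold change 0.72, SE 0.40). Cst7, an inhibitor of lysosomal cysteine proteases, was at 100, 50.5 and 45.2 CPM against 43.1, 42.6, 16.8 and 33.1 CPM (log2 fold change 0.73, SE 0.53), so that the Entire Grn WT libraries nearly met the Grn HET range. Lyz2, lysozyme, had a log2 fold change of 0.52 (SE 0.38) and overlapping groups. Without covariates the median of the list was 0.42.

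Homeostatic microglial genes, 27 tested, had a median of -0.19 with 4 above 0, although in 6 of them every Grn HET library was above every Grn WT library, beside 4.2% of all genes. The sum of the list was 103498 to 116662 CPM in the Grn HET libraries, 96054 and 105985 CPM in the Entire Grn WT libraries, and 75338 and 96028 CPM in the Hemi ones. The median was 0.29 without covariates, 0.38 with sex alone and 0.13 in the Entire libraries alone, and it ran from -0.42 to 0.0047 when 1 library was left out. The cause of these shifts was not tested. Sall1, a transcription factor that keeps microglial identity, was at 339, 348 and 340 CPM against 434, 439, 288 and 393 CPM, below the 2 Entire libraries and inside the range of the Hemi ones (log2 fold change -0.57, SE 0.46).

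The TGF-beta pathway, the signal that maintains homeostatic microglia, had 2 of 22 members above 0, beside 45.1% of all genes, and a median of -0.40. The median stayed below 0 in all 20 settings, from -0.61 to -0.12. None passed. Smurf1, a ubiquitin ligase that limits TGF-beta signalling, was at 94.0, 90.8 and 74.3 CPM in the Grn HET libraries and at 122, 159, 102 and 133 CPM in the Grn WT libraries. It was the only 1 of the 22 whose groups did not overlap, beside 2.88% of all genes with every Grn HET library below. It was also the only 1 with an unadjusted p under 0.05 (log2 fold change -0.76, SE 0.34, adjusted p = 0.854). Over all genes, 2.99% were lower at that p. The ligand gene Tgfb1 was at 76.5, 79.8 and 93.6 CPM against 93.5, 108, 94.0 and 82.1 CPM (log2 fold change -0.66, SE 0.42), with Grn WT replicates 1 and 4 within the Grn HET range. Smad3, which carries the signal to the nucleus, had a log2 fold change of -0.79 (SE 0.53) and the receptor gene Tgfbr1 of -0.61 (SE 0.42), both with overlapping groups. In Grn KO against Grn WT, 12 of the 22 fell, beside 6.05% of all genes. The list summed to 4872, 4768 and 1917 CPM in Grn KO replicates 1 to 3. Microglial identity markers summed to 32624, 22333 and 9194 CPM in the same libraries. The part of microglial content in this fall was not tested.

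Immune effector lists had medians on both sides of 0. Complement had 6 of 18 above 0 and a median of -0.26, the interferon response 10 of 28 and -0.11, antigen presentation 6 of 21 and -0.11, and cytokines and NF-kB targets 16 of 25 and 0.11, and none of their members passed. The library values of complement lay the other way, since its sum was 28008 to 31831 CPM in the Grn HET libraries and 18465 to 26963 CPM in the Grn WT libraries. In 4 of its members every Grn HET library was above every Grn WT library (4.2% of all genes) and in 1 below (2.88%), and its median was 0.06 without covariates and 0.30 with sex alone. The medians of interferon response and antigen presentation were also above 0 with sex alone, at 0.34 and 0.45. Serping1, the C1 inhibitor, was at 29.8, 75.2 and 39.5 CPM in the Grn HET libraries and at 26.7, 28.3, 25.3 and 22.8 CPM in the Grn WT libraries, without overlap (log2 fold change 0.89, SE 0.58). Grn HET replicate 2 was by far the highest of the 7. Ifit2, an interferon-induced protein, was at 31.6, 6.86 and 8.64 CPM against 45.3, 28.0, 18.9 and 15.7 CPM (log2 fold change -0.95, SE 0.46), with Grn HET replicate 1 inside the Grn WT range. Ccl12 (0.59, SE 0.40), C4b (-0.80, SE 0.58), Stat2 (-0.32, SE 0.34) and Tap1 (-0.32, SE 0.42) overlapped between groups.

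Of the 18 pathway lists, oxidative phosphorylation had the largest share of members on one side of 0. Of 29 tested subunits 28 were above 0, the median log2 fold change was 0.48, 10 had an unadjusted p under 0.05, and none passed. All 10 were higher, beside 2.54% of all genes and 200 of the 2160 genes in the class of shortest exonic width. The median was above 0 in all 20 settings, from 0.14 to 0.57. Cox4i1, a subunit of cytochrome c oxidase, was at 326, 357 and 397 CPM in the Grn HET libraries and at 273, 217, 364 and 320 CPM in the Grn WT libraries. Grn HET libraries were above the Entire Grn WT libraries and level with the Hemi ones (log2 fold change 0.56, SE 0.23, adjusted p = 0.854). Ndufs4, of complex I, was at 36.4, 61.7 and 40.9 CPM against 31.5, 32.5, 34.5 and 43.7 CPM (log2 fold change 0.74, SE 0.30). Cox6c (0.75, SE 0.31) and Atp5j, of the ATP synthase (0.62, SE 0.26), were likewise above both Entire Grn WT libraries in every Grn HET library.

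The sum of the oxidative phosphorylation list was 3770, 3740 and 3904 CPM in the Grn HET libraries, 3346 and 3348 CPM in the Entire Grn WT libraries and 4716 and 4430 CPM in the Hemi ones. Without regard to dissection the groups therefore overlapped. In 2 of 29 members every Grn HET library was above every Grn WT library, beside 4.2% of all genes. Mitochondrially encoded transcripts were at 0.148% to 0.336% of counts in the Grn HET libraries and at 0.181% to 0.261% in the Grn WT libraries. In Grn KO against Grn WT, 23 of the 29 rose, beside 8.42% of all genes. The list summed to 4717, 6357 and 11975 CPM in Grn KO replicates 1 to 3. Neuron markers summed to 557, 2316 and 7299 CPM in the same libraries, and their part in the list was not tested.

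Cholesterol synthesis (8 of 24 above 0, median -0.07), lipid efflux and storage (9 of 25, -0.10), the cell cycle (13 of 26, 0.04) and immediate early genes of cell isolation (14 of 26, 0.01) had no member that passed. Nr1h2, the liver X receptor beta, was at 118, 112 and 110 CPM in the Grn HET libraries against 117, 135, 186 and 117 CPM (log2 fold change -0.44, SE 0.21), its high value being Grn WT replicate 3. Ier2, an immediate early gene, was at 336, 479 and 291 CPM against 257, 271, 248 and 208 CPM, and Ier5 at 326, 473 and 313 CPM against 249, 276, 192 and 240 CPM. In both the groups were apart (log2 fold changes 0.44, SE 0.32, and 0.40, SE 0.31), as in 6 of the 26 members of that list, all higher in Grn HET, beside 4.2% of all genes. Sqle, an enzyme of cholesterol synthesis, had a log2 fold change of -1.32 (SE 0.76) and was highest in Grn WT replicate 3, at 55.6 CPM.

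**Figure D4:**
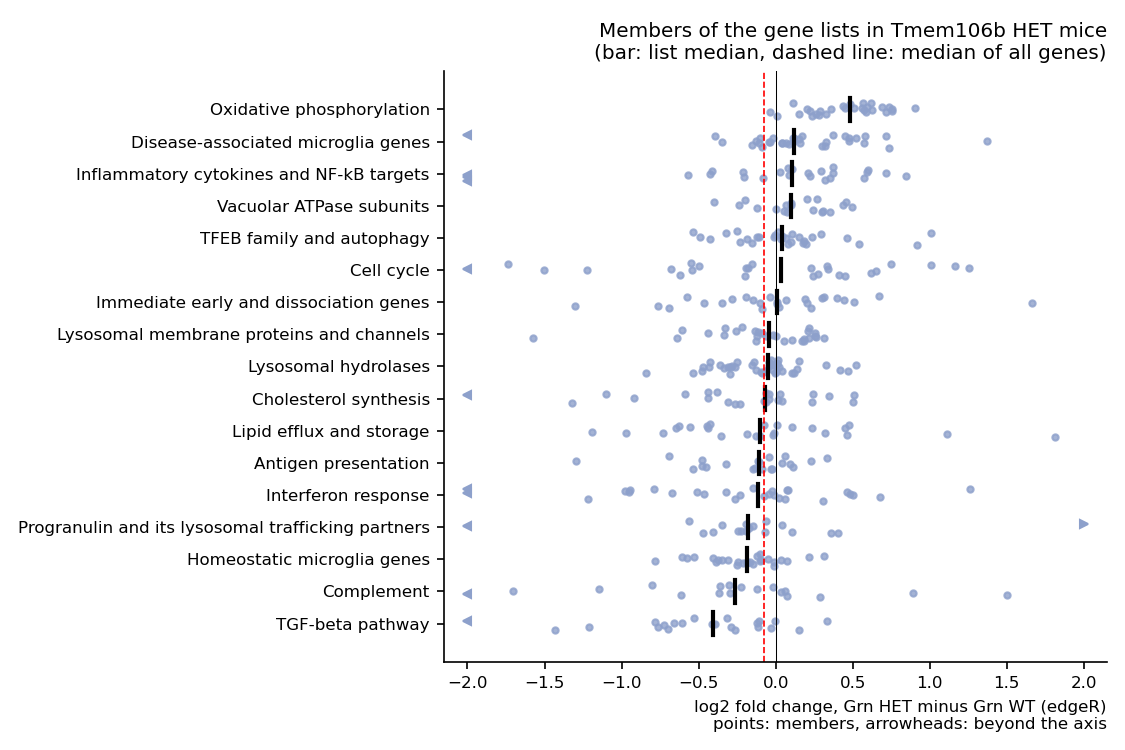
Log2 fold change, Grn HET minus Grn WT in Tmem106b HET mice, of each tested member of 17 gene lists (points; arrowheads lie beyond the axis; bars mark list medians, the dashed line the median of all genes, -0.07). Oxidative phosphorylation, with a median of 0.48, and the TGF-beta pathway, with a median of -0.40, lie at the ends; no member of any list passed.

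The fitted differences ran with the exonic width of genes. Over 10796 genes at 5 CPM or more, split by width into 5 classes of nearly equal number, the median log2 fold change was 0.20 in the shortest class (87 to 1854 bases) and then 0.03, -0.08, -0.14 and -0.15 up to the longest (5494 to 123179 bases). At an unadjusted p under 0.05 the shortest class held 200 higher and 11 lower genes, and the longest 26 higher and 77 lower. The shortest class had the larger median in all 20 settings, at 0.13 to 0.34 against -0.24 to -0.06 in the longest. Library medians were also taken relative to each gene's mean log2 CPM over the 7 libraries. In the shortest class they were 0.11, 0.07 and 0.25 in Grn HET against -0.11, -0.10, -0.03 and -0.14 in Grn WT. In the longest class they overlapped, at -0.09, 0.07 and -0.05 against 0.14, 0.09, -0.13 and 0.06. In Grn HET against Grn WT of Tmem106b WT mice, which uses 8 other libraries, the medians were -0.04 in the shortest and 0.05 in the longest class. The oxidative phosphorylation genes have a median width of 1142 bases and the TGF-beta genes of 5195 bases, and the part of width in either list was not tested.

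Markers of several other cell types were fitted lower in the Grn HET libraries. All 10 oligodendrocyte markers (median log2 fold change -1.12), all 10 endothelial (-2.05), all 10 choroid plexus and ependymal (-2.36) and 9 of 10 mural cell markers (-2.53) were below 0, and 1 of these 40, a mural marker, had an unadjusted p under 0.05. All 6 tested erythrocyte markers were below 0, 5 of them at an unadjusted p under 0.05. Over all genes, 2.99% were lower at that p. Markers of 1 cell type can vary together, so such counts are not counts of separate observations. None of these lists had a member that passed. The summed levels of the 2 groups overlapped in each of these 5 lists. The 10 oligodendrocyte markers, among them Mbp and Cnp, summed to 4607, 1117 and 3174 CPM in the Grn HET libraries and to 7578, 556, 26664 and 2159 CPM in the Grn WT libraries. The range of the Grn WT libraries enclosed that of the Grn HET libraries. The 10 endothelial markers were at 110 to 279 CPM against 115 to 971 CPM, the 10 choroid plexus and ependymal markers at 106 to 200 CPM against 159 to 1272 CPM, and the 10 border macrophage markers at 938 to 1227 CPM against 459 to 1229 CPM. Erythrocyte markers, among them the globin gene Hbb-bs, summed to at most 1.68 CPM in the Grn HET libraries and to 117, 9.48, 482 and 0.583 CPM in the Grn WT libraries. Hbb-bs itself was at 0, 0 and 0.896 CPM in the former. Grn WT replicate 3 held the most oligodendrocyte, endothelial, choroid plexus, erythrocyte and astrocyte transcripts of the 7 libraries.

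**Figure D5:**
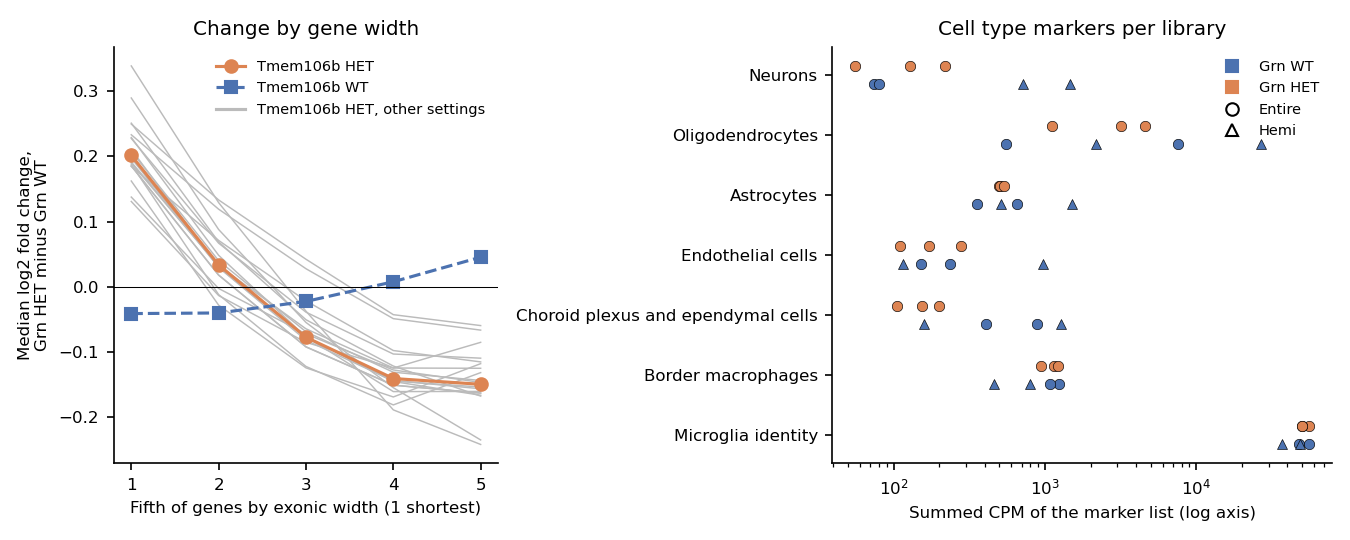
Left, median log2 fold change of genes in 5 classes of exonic width, from the shortest (1) to the longest (5), in Tmem106b HET mice (orange, other settings in grey) and Tmem106b WT mice (blue). Right, summed CPM of cell type markers in each library (log axis; blue Grn WT, orange Grn HET; circles Entire, triangles Hemi). The orange line runs from 0.20 to -0.15, and the neuron markers are highest in the 2 Hemi libraries, at 721 and 1463 CPM.

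Whether the Grn HET genotype acts differently in Tmem106b HET and Tmem106b WT mice was tested as an interaction in the same model. In edgeR 0 of 21371 genes passed (0.0%), 1196 (5.6%) had an unadjusted p under 0.05 (1.25% higher and 4.35% lower), limma-voom gave 0 and DESeq2 402, of which 44 were higher. The comparison in Tmem106b WT mice (5 Grn HET against 3 Grn WT libraries) also gave 0 genes in edgeR, with 734 (3.43%) at an unadjusted p under 0.05 (2.87% higher and 0.562% lower). Coq8b had the smallest p of the interaction among genes at 5 CPM or more, with a difference of 1.45 on the log2 scale (SE 0.31, adjusted p = 0.833). In Tmem106b WT mice it was at 28.1, 29.8, 23.7, 26.8 and 26.3 CPM in Grn HET and at 33.1, 39.3 and 29.7 CPM in Grn WT. There the order was the reverse of the 1 in Tmem106b HET mice, with Grn HET below Grn WT apart from 1 crossing pair.

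The next 4 genes of the interaction, Sostdc1 (-10.64), Spint2 (-5.15), Ace (-8.67) and 1500015O10Rik (-9.24), given as log2 differences, are expressed in choroid plexus. Spint2, an inhibitor of serine proteases, was at 1.94, 0.705 and 0.937 CPM in the Grn HET libraries of Tmem106b HET mice and at 3.64, 6.47, 8.002 and 6.16 CPM in their Grn WT libraries. In Grn HET libraries of Tmem106b WT mice it was at 4.36, 65.8, 4.46, 48.7 and 324 CPM. The choroid plexus and ependymal markers summed to 264, 5535, 597, 7596 and 43504 CPM in the same 5 libraries and to 53.3 to 364 CPM in the 3 Grn WT libraries. Both were highest in the same library, and the part of these markers in the 4 genes was not tested.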

How the data were processed

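Poly(A) RNA of microglia was turned into libraries by SMART-Seq v4 amplification and Nextera XT tagmentation, per the labels' protocols. Each deposited file holds raw exonic counts per Ensembl gene, the exonic width of the gene and RPKM, per the file headers. RPKM values deposited by the authors are scaled by width and by a library total other than the sum of the counts, and served only as an alternative scale. The submitters' processing notes name GSNAP and GRCm38. The sources used here do not give the counter, annotation release or treatment of strand, so overlapping genes and close paralogs may share reads. Of 52636 genes, 52489 matched GENCODE identifiers, and 147 did not, with no more than 0.0104% of the counts of any library. Totals were 37.6 to 63.7 M counts over the 26 libraries. Replicates of a group were distinct libraries (r of log2 CPM 0.892 to 0.966).

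EdgeR 4.0.16 in R 4.3.3 was fitted to all 26 libraries with 7 genotype groups, sex and dissection, after edgeR's expression filter and TMM scaling. Robust quasi-likelihood F-tests were two-sided, adjusted by Benjamini-Hochberg over 21371 genes, with 17 residual degrees of freedom. The threshold was an adjusted p of 0.05, and the scripts were tested on simulated data. Gene values are TMM-scaled CPM, and sums over lists use the plain library total. Permutation tests (SciPy 1.17.1) used log2 of CPM plus 0.5. Alternatives were DESeq2 1.42.0, limma-voom (limma 3.58.1), other scaling, filters, covariates and library sets, and leaving out each of the 7 libraries.

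The comparison, the gene lists (18 pathway and 15 marker lists) and the naming rule were chosen with earlier results of these data known. Named genes are Grn and Tmem106b, the 12 higher and 12 lower genes of smallest p (absolute log2 fold change at least 0.5, at least 5 CPM in the higher group, no predicted, Y-linked or Xist genes), up to 4 members of each pathway list by p, up to 3 of each marker list by level, the 5 smallest p of the interaction, and 10 genes in each direction from Grn KO against Grn WT in Tmem106b WT mice. Genes that passed where fewer than 5 did in a setting, and Optn as a member of the Grn KO list, were named after their values were seen. Values of a few members that these rules select are not reported here.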

Additional observations from a re-analysis of the deposited data

Results flagged for a closer look

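In groups of 4 libraries, a value was marked when its gap to the nearest other library was a larger part of the group's range than Dixon's 95% critical value, which chance passes in about 1 of 20 groups. Of 59 genes and list sums checked over the 4 Grn WT libraries, 3 were marked. Nell1, a secreted protein with EGF-like domains, was at 20.3 CPM in Grn WT replicate 4, a Hemi library, and at 1.41 to 3.97 CPM in the other 3. Nhsl2 was at 24.6 CPM in Grn WT replicate 1 and at 28.1 to 28.8 CPM in the other 3, a small gap within a tight group. The endothelial markers summed to 971 CPM in Grn WT replicate 3, also a Hemi library, and to 115 to 237 CPM in the others.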

How the results depend on the processing

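The count of 0 genes passing in edgeR held in the other edgeR and limma-voom settings except without Grn HET replicate 1, so that leaving out 1 library gave 0 to 4. DESeq2 gave 278 genes, and 402 for the interaction. The Grn level stayed below 0 in each setting of the permutation test, at -0.83 to -0.51 when 1 library was left out. The Tmem106b level, 0.12 in the main setting, was -0.0085 on the plain library total, -0.018 on RPKM and -0.062 to 0.30 when 1 library was left out. Its log2 fold change was 0.037 in limma-voom. In edgeR it was 0.058 without covariates, 0.029 with sex only and 0.052 with dissection only. The edgeR value was 0.010 and 0.17 in the 7 libraries without and with covariates, and -0.22 to 0.15 when 1 library was left out. The edgeR log2 fold change of Grn was -0.45 to 0.12 when 1 library was left out and the Grn KO libraries were kept. In the 7 libraries with covariates it was -1.21 (SE 0.32, adjusted p = 0.332). Over all 26 libraries limma-voom gave -1.18 (SE 0.49, adjusted p = 0.783) and DESeq2 -0.23 (SE 1.35).

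Many list medians moved with the covariates or the library set. Without covariates they were 0.13 for genes lower in Grn KO, 0.13 for progranulin partners, 0.27 for hydrolases, 0.30 for lysosomal membrane proteins, 0.42 for disease-associated genes, 0.29 for homeostatic genes, 0.058 for complement, 0.44 for cytokines, 0.30 for antigen presentation, 0.19 for oxidative phosphorylation, 0.33 for immediate early genes and -0.17 for TGF-beta. With sex only they were, in the same order, 0.16, 0.16, 0.34, 0.36, 0.55, 0.38, 0.30, 0.50, 0.45, 0.16, 0.37 and -0.15, and 0.10 for TFEB and autophagy and 0.34 for interferon. In the 7 libraries without covariates they were -0.049 for genes higher and 0.080 for genes lower in Grn KO, 0.049 for progranulin partners, 0.23 for hydrolases, 0.26 for membrane proteins, 0.24 for homeostatic genes, 0.43 for cytokines, 0.25 for antigen presentation, 0.14 for oxidative phosphorylation, 0.28 for immediate early genes and -0.22 for TGF-beta. With covariates in those 7 they were -0.31 for genes higher in Grn KO, -0.029 for TFEB and autophagy, -0.79 for cholesterol synthesis, 0.23 for oxidative phosphorylation, -0.67 for the cell cycle, 0.39 for immediate early genes and -0.12 for TGF-beta. Without the Grn KO libraries the vacuolar ATPase median was 0.26. In the Entire libraries alone the medians were 0.020 for progranulin partners, 0.15 for membrane proteins, 0.28 for the vacuolar ATPase, 0.13 for homeostatic genes, 0.21 for interferon, 0.52 for cytokines and 0.58 for immediate early genes.

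Leaving out 1 library in turn gave -0.073 to 0.28 for genes higher in Grn KO, -0.16 to 0.12 for membrane proteins, 0.10 to 0.27 for the vacuolar ATPase, -0.027 to 0.074 for TFEB and autophagy, -0.42 to 0.0047 for homeostatic genes, -0.22 to 0.10 for lipid efflux and storage, -0.14 to 0.25 for immediate early genes and -0.61 to -0.39 for TGF-beta. The cause of these shifts was not tested. No paired analysis was possible because the labels number no replicates, and the numbers used here follow the order of deposit. With 3 against 4 libraries the exact test cannot go below 0.0571, and genes below 5 CPM, with a median standard error of 1.55, could show only very large differences.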

Other observations

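Further genes that rose in Grn KO of Tmem106b WT mice had an unadjusted p under 0.05 in the heterozygotes of Tmem106b HET mice, in both directions, and were named after their values were seen. Blvra, biliverdin reductase, was at 60.2, 50.1 and 76.1 CPM in the Grn HET libraries and at 44.7, 41.7, 36.8 and 47.1 CPM in the Grn WT libraries, without overlap (log2 fold change 0.51, SE 0.20). Wfdc17, a small secreted protein of myeloid cells, was at 66.9, 48.7 and 119 CPM against 67.6, 41.3, 11.2 and 17.3 CPM, where the Entire libraries overlapped (log2 fold change 1.08, SE 0.49). Pygl, glycogen phosphorylase, lay the other way at 20.3, 16.6 and 4.42 CPM against 31.6, 26.3, 19.7 and 18.8 CPM, with Grn HET replicate 3 the lowest (log2 fold change -1.02, SE 0.38). Necab3, a calcium-binding protein, was at 1.06, 0.0381 and 0.265 CPM against 1.92, 1.302, 6.13 and 15.96 CPM, without overlap and highest in the Hemi libraries (log2 fold change -2.20, SE 0.96). Cacnb3, a calcium channel subunit, was at 0.862, 0.953 and 0.102 CPM against 1.43, 2.97, 15.1 and 6.69 CPM, also without overlap (log2 fold change -2.18, SE 0.88). The noncoding Gm16835, at most 0.708 CPM in any of the 7 libraries, did not overlap either, and Cxcr4, Chrna3, Mamdc2 and Trpm1, all under 4 CPM, were fitted lower with overlapping groups. Rftn1, a lipid raft protein, had a log2 fold change of -0.81 (SE 0.38) and its high value in Grn WT replicate 3, at 106 CPM.

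The genes next to Grn on chromosome 11 gave values of their own. Slc25a39, a mitochondrial carrier, was at 203, 124 and 166 CPM in the Grn HET libraries and at 146, 179, 156 and 160 CPM in the Grn WT libraries, so that the groups overlapped (log2 fold change -0.07, SE 0.21). Gpatch8 had a log2 fold change of -0.41 (SE 0.27) and Rundc3a of -0.99 (SE 0.58), both with overlapping groups. Fam171a2, whose annotated end overlaps that of Grn on the opposite strand, ranged from 0.802 to 4.93 CPM in Grn HET and from 1.12 to 7.36 CPM in Grn WT.

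Markers of blood and other brain cells not described above were low or overlapped between the groups. Monocyte markers summed to 17.1 to 31.7 CPM in the Grn HET libraries and 11.0 to 44.6 CPM in the Grn WT libraries, neutrophil markers to 22.96 to 55.5 against 7.24 to 30.5 CPM, T and NK cell markers to 7.67 to 78.6 against 12.9 to 118 CPM, and B cell markers to 676 to 1035 against 617 to 1051 CPM. Oligodendrocyte precursor markers summed to 97.0 to 199 against 51.0 to 1583 CPM, medial habenula markers to 5.31 to 11.3 against 7.67 to 103 CPM, and mural cell markers to 159 to 360 against 168 to 554 CPM.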
